A study of Mus musculus with 12 samples.

Results

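The genes described are 9 components of T cell receptor signalling, namely the kinases Lck, Fyn, Txk, Zap70 and Prkcq, the adaptors Lat and Lcp2, the regulator Themis and the phosphatase Ptpn22, of 21755 protein-coding genes on the autosomes and the X chromosome. They were taken by name, and their DNase I hypersensitive sites (DHSs) were all peaks lying in the gene body (mm10, GENCODE annotation) or within 50 kb either side of it. Of 170207 DHSs obtained by merging overlapping peaks of all libraries, 277 lay in the windows of these genes. Among these, 30 were promoter DHSs, with a peak midpoint within 1 kb of an annotated start of the gene itself, and 36 were promoters of neighbouring genes. The remaining 211 were distal DHSs, of 131025 distal DHSs in all.

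The series compared DNase-seq of mouse hematopoietic progenitors before and during T cell induction by the Notch ligand Delta1. LSK cells (lineage-negative, Sca1+, KIT+ cells) were freshly isolated from the marrow of C57BL/6J mice, whose age and sex are not given in the sources used here, and gave 3 libraries. Culture of LSK cells on a high density of immobilised Delta1 gave the double-negative (DN) stages, sorted as DN1 (KIT++CD44+CD25-, 2 libraries), DN2a (KIT++CD44+CD25+, 2 libraries) and DN2b (KIT+CD44lo CD25+, 2 libraries). DN2a and DN2b cells had received IL-7 as well as Delta1, whereas DN1 cells came from culture without it. The control cells were LSK cells cultured on human IgG1 without ligand (IgG, 3 libraries), for which the addition of IL-7 is not stated. No genotype difference between the groups is stated, although the study also kept mice with floxed Notch1. Medium of the Delta1 and IgG cultures held fetal bovine serum, SCF, FLT-3 ligand, IL-6 and IL-11, whereas LSK cells were not cultured. The Delta1 cultures therefore differ from LSK in culture and cytokines as well as in ligand. The DN stages differ from one another in cytokine and time of harvest as well as in sorting gate. Replicates came from separate LSK isolates. The stages were harvested one after another from an isolate, so libraries of different groups can share an isolate, and the labels do not say which do.

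T cell receptor signalling starts when Lck or Fyn, kinases of the Src family, phosphorylates the CD3 and zeta chains of the receptor. Zap70 binds the phosphorylated chains and phosphorylates the membrane adaptor Lat and the cytosolic adaptor SLP-76, encoded by Lcp2, which assemble a complex around phospholipase C gamma. Txk, of the Tec family, acts on that phospholipase, Prkcq (protein kinase C theta) passes the signal to NF-kappaB, Themis sets signal strength during thymocyte selection, and Ptpn22 removes activating phosphates from Lck and Zap70. DN1 and DN2 cells precede the stage at which a rearranged receptor chain reaches the surface. The paper places the first productive receptor rearrangements at commitment, marked by DN2b cells, and receptor expression was not measured here.

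Each library was deposited as a list of peaks 150 bp wide with a score in column 5 whose meaning is not given in the sources used here. The score was therefore used only as a percentile of the library's own list, in which 100 is the highest score, and a site without a peak was set to 0. The lists held 53869 to 62377 peaks in LSK, 69391 and 96436 in DN1, 57729 and 68478 in DN2a, 61484 and 111582 in DN2b and 32952 to 37511 in IgG. Read depth is unknown, so a missing peak means that no peak was called, and the promoter, start and distal comparisons and the presence patterns were repeated with each list shortened to its 32952 highest-scoring peaks (equal list lengths). Promoters of markers of other cell types also differed between groups. Of 12 myeloid markers, 8 to 11 had a promoter peak in IgG against 3 to 4 in LSK, 5 to 7 in DN1, 3 in DN2a and 4 to 6 in DN2b. Of 12 T lineage markers, 1 had one in each IgG library, 3 to 5 in LSK, 7 to 8 in DN1 and 11 in each DN2a and DN2b library. Of 10 natural killer cell markers, 0 had one in IgG, 1 to 3 in LSK, 6 to 7 in DN1, 4 to 5 in DN2a and 6 to 8 in DN2b. The myeloid counts at equal list lengths were 8 to 11 in IgG, 2 to 3 in LSK, 2 in DN1, 1 to 3 in DN2a and 0 to 1 in DN2b, and the natural killer counts 0 in IgG, 0 to 2 in LSK, 3 to 5 in DN1, 4 in DN2a and 4 to 5 in DN2b. Of 12 stem and progenitor markers, 9 to 10 then had a promoter peak in LSK, 6 in DN1, 5 in each DN2 library and 5 to 7 in IgG, while in the complete lists LSK had 9 to 11, DN1 9 to 10, DN2a 7 to 8, DN2b 7 to 9 and IgG 5 to 7. T lineage counts at equal list lengths were 1 to 2 in LSK, 4 to 5 in DN1, 9 to 11 in DN2a, 11 in DN2b and 1 in IgG. The part of list length and of these cell types in the results below was not tested.

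The 2 main comparisons set the 4 DN2 libraries against the other 8, and the 6 Delta1-cultured libraries against the 6 of LSK and IgG. They share libraries and are not independent of each other. Each used an exact permutation test of the difference in mean percentile over all divisions of the libraries (two-sided, 495 and 924 divisions), with Benjamini-Hochberg adjustment over every protein-coding gene that had a promoter peak in any library. The smallest unadjusted p these tests can give is 0.00202 for DN2 and 0.00216 for Delta1.

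The promoters of 5 of the 9 genes, Zap70, Lcp2, Fyn, Txk and Ptpn22, were higher in Delta1-cultured cells at adjusted p = 0.0260 (exact permutation test), where 13.3% of 14816 genes were called higher. A library averages over its cells, so fewer cells with an open site and less signal per cell cannot be told apart. Over the 9 genes the median difference was 21.9 percentile points, against 5.80 over all genes tested. With lists of equal length 8 of the 9 had a promoter peak. Of them 3, Zap70, Lcp2 and Fyn, were called higher at adjusted p = 0.0354 (exact permutation test). Among 12663 genes, 3.04% were called higher there and 389 lower. Here the median differences were 21.4 over the 8 genes and -0.13 over all genes. Txk (adjusted p = 0.211) and Ptpn22 (adjusted p = 0.0513) missed the threshold in that exact permutation test. When any 1 of the 6 Delta1-cultured libraries was left out of the complete lists, no gene of the genome passed.

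No gene was called in the DN2 comparison, with 5 of the 9 genes at an unadjusted p under 0.05 in the exact permutation test and 1194 of all 14816 genes at such a p and higher. Txk was the 1 member with all DN2 values above all others, a separation shown by 1.71% of genes. Zap70, Lcp2 and Txk separated in this way at equal list lengths, each with adjusted p = 0.0670 (exact permutation test), against 2.38% of genes. Counted as open where at least 2 replicates of a group had a promoter peak, the members open in LSK were Lck, Lat, Fyn, Prkcq and Ptpn22, and those open in each of DN1, DN2a and DN2b were Lck, Zap70, Lat, Lcp2, Fyn, Txk and Ptpn22. In IgG the open promoters were those of Lck, Fyn and Ptpn22, with Lck open at a group of non-coding starts alone. By this count Prkcq was open in LSK only at a start 54.76 kb downstream of its first start. Over all protein-coding genes, 47.3% were open in IgG and 56.8% in LSK, against 54.9% for DN1, 51.8% for DN2a and 55.3% for DN2b.

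**Figure D1:**
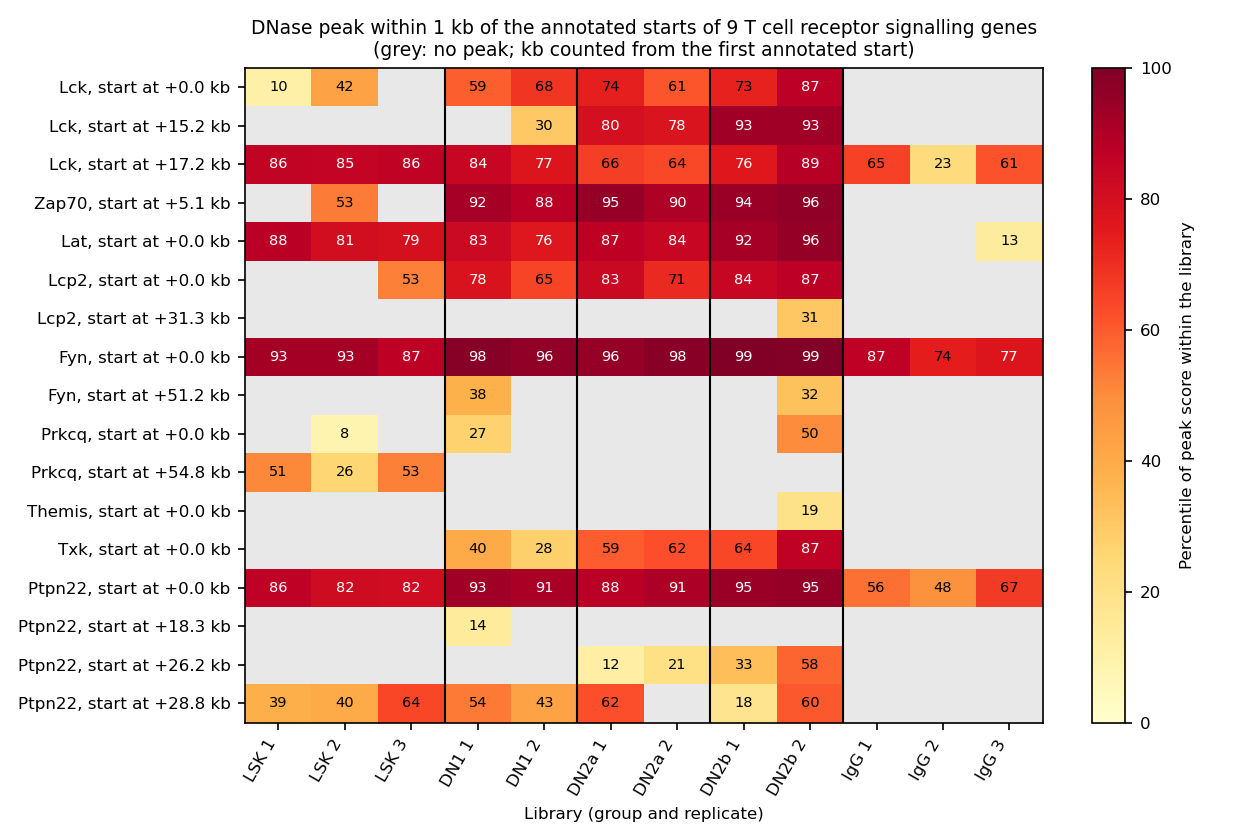
Percentile of the peak score within 1 kb of each annotated group of start sites with a peak (rows, kb from the first start of the gene) in the 12 libraries (columns, group and replicate), with grey for no peak. The second Lck start group, at 15.25 kb, holds percentiles of 77.7 to 93.4 in the 4 DN2 libraries and 1 further peak in DN1, while the Prkcq start at 54.76 kb has peaks in LSK alone.

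Lck, which is known to be transcribed from a distal and a proximal promoter, had 3 groups of annotated starts, and they differed. The first start (chr4:129573641-129573641, minus strand, 1 coding transcript) had percentiles of 10.2 and 42.2 in LSK replicates 1 and 2 and no peak in replicate 3, 59.4 and 68.4 in DN1, 73.6 and 61.0 in DN2a, and 72.8 and 87.4 in DN2b. IgG had no peak there. All Delta1-cultured values thus lay above all others, with means of 70.4 and 8.73 (adjusted p = 0.0273, exact permutation test over 20256 start groups, of which 10.1% were called higher). With lists of equal length DN1 replicate 1 had no peak at this start, LSK replicate 2 kept one at 4.35, and the call was lost (adjusted p = 0.101, exact permutation test).

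The second group of Lck starts, 15.25 kb downstream (129558087 to 129558391, 3 of 4 transcripts coding), carried peaks at percentiles of 80.0 and 77.7 in DN2a and 93.1 and 93.4 in DN2b. DN1 replicate 2 had one at 30.5, and the other 7 libraries had none. The DN2 mean was 86.0 against 3.81 in the rest (adjusted p = 0.104, exact permutation test), a separation of groups shown by 2.22% of start groups in the complete lists. At equal list lengths the DN1 peak was absent and the DN2 values were 58.5, 60.9, 87.1 and 77.5 (adjusted p = 0.0564, exact permutation test), where 2.98% of 15493 start groups separated. A further group, 17.18 kb from the first start and made of 3 non-coding transcripts, had a peak in all 12 libraries, from 23.1 in IgG replicate 2 to 88.6 in DN2b replicate 2. This non-coding group, rather than the coding starts, therefore set the value of Lck in LSK, DN1 and IgG, and the whole-gene test of Lck (adjusted p = 0.267 for Delta1, exact permutation test) mixes starts of unlike pattern.

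The highest peaks at both coding starts are shown because the starts opened in different groups. The sequences are from the GRCm38 reference, read 5′ to 3′ on the minus strand with annotated UTR bases left out, and capitals mark the letters of 6 motifs on either strand. These were TGNGGT for the RUNX family, which is needed throughout T cell development, with N for any base. CTTTGA was searched for TCF1/LEF1, factors induced by Notch. The GATA family, with Gata3 as its T cell member, was searched as AGATAA, the ETS family as AGGAAG, the E proteins as CAGNTG, and RBPJ, the factor through which Notch acts on DNA, as GTGGGAA.
Lck first start, chr4:129573642-129573746: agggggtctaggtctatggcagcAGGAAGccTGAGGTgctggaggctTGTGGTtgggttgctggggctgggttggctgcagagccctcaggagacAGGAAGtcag
Lck second start, chr4:129558392-129558526: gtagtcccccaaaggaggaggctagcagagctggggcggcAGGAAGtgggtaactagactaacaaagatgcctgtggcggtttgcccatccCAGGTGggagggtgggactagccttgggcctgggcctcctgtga

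In these stretches the first start held 2 RUNX and 2 ETS matches, and the second 1 ETS and 1 E protein match. Over the highest 150-bp peak of each promoter DHS in the genome, RUNX letters occurred in 30.2%, ETS in 24.2% and E protein in 31.3%, so single matches are common. The ratio of observed to expected CpG in the 2 kb around the starts was 0.256 at the first and 0.247 at the second start, near the median of 0.266 over 48338 start groups, and 0.520 at the non-coding group.

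Among the other Src and Tec kinases, Fyn was open everywhere and Txk in the Delta1 cultures alone. Fyn's main starts (chr10:39368855-39369803, plus strand) had percentiles of 92.6, 92.5 and 86.8 in LSK, 98.3 and 96.4 in DN1, 95.7 and 97.7 in DN2a, 99.3 and 99.0 in DN2b, and 86.6, 74.1 and 77.2 in IgG. The 6 Delta1-cultured values lay above the other 6, on a promoter whose CpG ratio of 0.733 stood at the 92.2nd percentile of start groups. A second Fyn start, 51.2 kb downstream, had a peak in DN1 replicate 1 (37.8) and DN2b replicate 2 (32.2), the libraries with the longest lists, and in no library at equal list lengths.

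Txk had no promoter peak in LSK or IgG. Its percentiles were 39.8 and 27.8 in DN1, 59.5 and 62.5 in DN2a, and 64.4 and 86.7 in DN2b, so each DN2 value exceeded each DN1 value. The DN1 peaks were absent at equal list lengths, and 15.8, 34.3, 33.5 and 54.9 remained in DN2. The peak lay just upstream of the start (chr5:72752777) and is shown because Txk was the 1 member whose whole-gene promoter value separated DN2 from all other libraries in the complete lists.
Txk start, minus strand, chr5:72752778-72752906: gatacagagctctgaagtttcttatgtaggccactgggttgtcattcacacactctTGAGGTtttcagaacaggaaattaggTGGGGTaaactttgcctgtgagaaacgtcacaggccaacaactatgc

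Both capital stretches of the Txk sequence, TGAGGT and TGGGGT, match the letters TGNGGT that were searched for RUNX. They are letter matches alone.

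Zap70 opened at its second start. The first annotated start of the gene (chr1:36761798, plus strand) had no peak in any library. At the start 5.136 kb downstream (36766934, 1 coding transcript) percentiles were 92.0 and 87.8 in DN1, 95.1 and 90.1 in DN2a, and 94.2 and 96.4 in DN2b. LSK replicate 2 had a peak at 53.5, and the other LSK and all IgG libraries had none. The Delta1 mean was 92.6 against 8.91 in LSK and IgG, the largest difference of the 9 genes. With only the 5′ end of each gene record counted as its start, Zap70 had no promoter peak at all. No sequence is shown for this peak, which lay almost wholly in an annotated UTR.

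The adaptors differed in their starting state, since Lat was open in LSK and Lcp2 mostly was not. Lat (chr7:126363824-126369570, minus strand) had promoter percentiles of 87.9, 80.6 and 79.4 in LSK, 83.1 and 76.2 in DN1, 87.1 and 84.1 in DN2a, and 91.9 and 95.5 in DN2b. In IgG a peak was present only in replicate 3, at 13.1, and it was absent at equal list lengths. LSK and DN values overlapped, so the Delta1 test, which pools LSK with IgG, did not call Lat (86.3 against 43.5, adjusted p = 0.137, exact permutation test).

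Lcp2 (chr11:34046920-34092295, plus strand) had a promoter peak in LSK replicate 3 (52.7) and in no other LSK or IgG library. Its percentiles were 77.8 and 64.6 in DN1, 83.2 and 71.1 in DN2a, and 84.1 and 87.4 in DN2b, so the Delta1-cultured libraries lay above the rest and DN1 overlapped DN2a. With lists of equal length DN1 (35.2 and 25.4) lay below DN2a (65.1 and 49.4) and DN2b (70.4 and 57.5). The CpG ratio at its start was 0.133, at the 11.8th percentile of start groups, the lowest of the member starts with a peak. A non-coding start 31.26 kb downstream had a peak in DN2b replicate 2 alone, at 30.6.

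Themis and Prkcq lacked a steady promoter peak at any DN stage. Themis (chr10:28668360-28883818, plus strand) had 1 promoter peak, at percentile 19.0 in DN2b replicate 2, the longest list, and none at equal list lengths. The first start of Prkcq (chr2:11172108-11172310, plus strand) had peaks at 8.12 in LSK replicate 2, 27.2 in DN1 replicate 1 and 49.7 in DN2b replicate 2. Prkcq's start 54.76 kb downstream (11226868, 1 coding transcript) had peaks in LSK alone, with 50.8, 25.6 and 52.7 in LSK and no peak in the 6 Delta1-cultured or 3 IgG libraries (adjusted p = 0.343, exact permutation test over start groups). Of the 3 LSK peaks 2 were left at equal list lengths, at 19.6 and 10.4.

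Ptpn22, the inhibitor of the set, was open in every library at its main starts (chr3:103859795-103860555, plus strand), with 86.4, 82.0 and 81.6 in LSK, 93.0 and 91.1 in DN1, 87.6 and 90.6 in DN2a, 94.5 and 95.2 in DN2b, and 55.6, 48.3 and 66.9 in IgG. In the complete lists LSK values stood above IgG values and below those of the Delta1 cultures. At equal list lengths Ptpn22 stood at 77.8 in LSK replicate 1 and 74.2 in DN2a replicate 1, so LSK and Delta1 values overlapped. Of its internal starts, all of non-coding transcripts, the one 26.2 kb downstream had peaks only in DN2, at 11.7, 20.5, 33.3 and 58.1, and these were absent at equal list lengths. The start 28.83 kb downstream had 38.6, 39.8 and 64.3 in LSK, 53.7 and 42.9 in DN1, 62.3 in DN2a replicate 1, 17.8 and 60.2 in DN2b and no peak in DN2a replicate 2 or IgG. A peak at 18.26 kb was present in DN1 replicate 1 alone, at 13.9.

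With starts tested apart, 6 of the 17 member start groups with a peak were called higher with Delta1 in the complete lists, where 10.1% of all start groups were. They were the first start of Lck and the starts of Zap70, Lcp2, Fyn, Txk and Ptpn22 described above. With lists of equal length 3 of 11 were called, where 3.26% of all start groups were. No start group of the genome was called higher in DN2 in either setting. At an unadjusted p under 0.05 in the exact permutation test, 1817 of 20256 and 1277 of 15493 were higher.

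Distal DHSs were more numerous in the Delta1 cultures around 3 of the 9 genes, Lcp2, Prkcq and Lat. Lcp2 had 10, 10 and 12 distal DHSs with a peak in LSK, 22 and 17 in DN1, 20 and 15 in DN2a, 15 and 29 in DN2b, and 12, 7 and 7 in IgG. Prkcq had 9, 10 and 11 in LSK, 20 and 17 in DN1, 16 and 17 in DN2a, 16 and 26 in DN2b, and 6, 7 and 7 in IgG. For Lat the numbers were 2, 3 and 5 in LSK, 6 and 6 in DN1, 8 and 7 in DN2a, 10 and 11 in DN2b, and 4, 2 and 1 in IgG. Those 3 genes were called higher with Delta1 at adjusted p = 0.0358 (exact permutation test), where 6.0% of 20104 genes were called.

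These numbers moved with list length. At equal list lengths no gene of 17577 was called in either comparison (1590 genes higher with Delta1 and 1527 higher in DN2 at an unadjusted p under 0.05, exact permutation test). Among the members, 4 and 2 reached that unadjusted level. Fyn, Prkcq and Lat then had more distal DHSs in each Delta1-cultured library than in any other, which 2.02% of genes showed. In the complete lists Fyn had not separated (12 to 33 against 2 to 13), whereas Lcp2 had, and at equal list lengths Lcp2 overlapped (11 to 15 against 7 to 12). Leaving out LSK replicate 1 or 2, or any of the 3 IgG libraries, left no gene called in the complete lists, and leaving out DN1 replicate 2 raised the members called from 3 to 5 and the share of all genes called to 9.31%.

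Lat was the member whose distal DHSs distinguished DN2. All 4 DN2 libraries (7 to 11 sites) exceeded the other 8 (1 to 6 sites), with means of 9.0 and 3.63 (adjusted p = 0.383, exact permutation test), and 0.522% of genes separated in this way. At equal list lengths the numbers were 7 and 7 in DN2a, 7 and 6 in DN2b, 3 and 3 in DN1, and 1 to 2 elsewhere (adjusted p = 0.0626, exact permutation test), where 2.28% of genes separated. No gene was called in this DN2 comparison of the complete lists, with 1820 of 20104 genes, 4 members among them, higher at an unadjusted p under 0.05 in the exact permutation test.

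**Figure D2:**
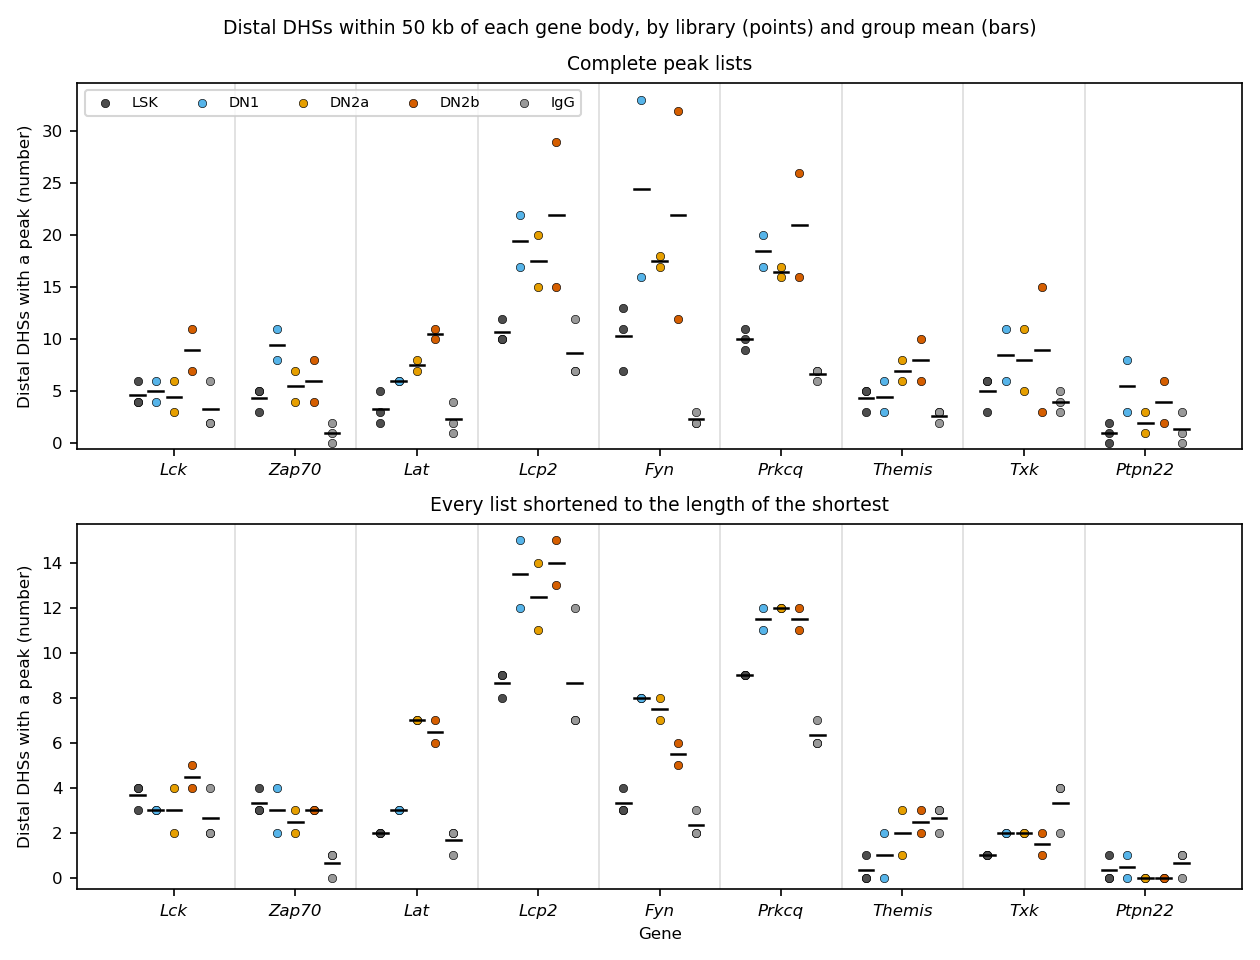
Number of distal DHSs with a peak within 50 kb of each gene body (vertical axis) for the 9 genes, with points for libraries, colours for groups and bars for group means, in the complete lists (upper panel) and with every list shortened to the shortest (lower panel). Lat keeps 6 to 7 sites in the DN2 libraries against 1 to 3 elsewhere in the lower panel. There Zap70, Txk, Themis and Ptpn22 hold between 0 and 4 sites, and Lck 2 to 5.

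Of the 211 distal DHSs, those with peaks in at least 2 replicates of a group numbered 28 in IgG (13.3%, against 15.1% of all distal DHSs) and 49 in LSK (23.2%, against 27.1%). For DN1 they numbered 77 (36.5%, against 32.3%), for DN2a 61 (28.9%, against 22.0%) and for DN2b 73 (34.6%, against 27.8%). By the first stage at which they met that criterion in the order LSK, DN1, DN2a, DN2b, 39 member sites (18.5%) first appeared in DN1, 12 (5.69%) in DN2a and 14 (6.64%) in DN2b, against 12.5%, 2.99% and 5.06% of all distal DHSs. At equal list lengths the shares were 24.3% in IgG (against 32.4% of all distal DHSs) and 28.0% in LSK (against 33.2%). For DN1 they were 34.6% (against 28.2%), for DN2a 37.4% (against 26.7%) and for DN2b 39.3% (against 26.8%). First appearances then made up 14.0% in DN1, 11.2% in DN2a and 7.48% in DN2b, against 9.28%, 5.53% and 4.34%. These shares are a description of sites that neighbour one another and are not independent. In the complete lists a peak in a single library accounted for 58 of the member sites (27.5%), against 34.5% of all distal DHSs.

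**Figure D3:**
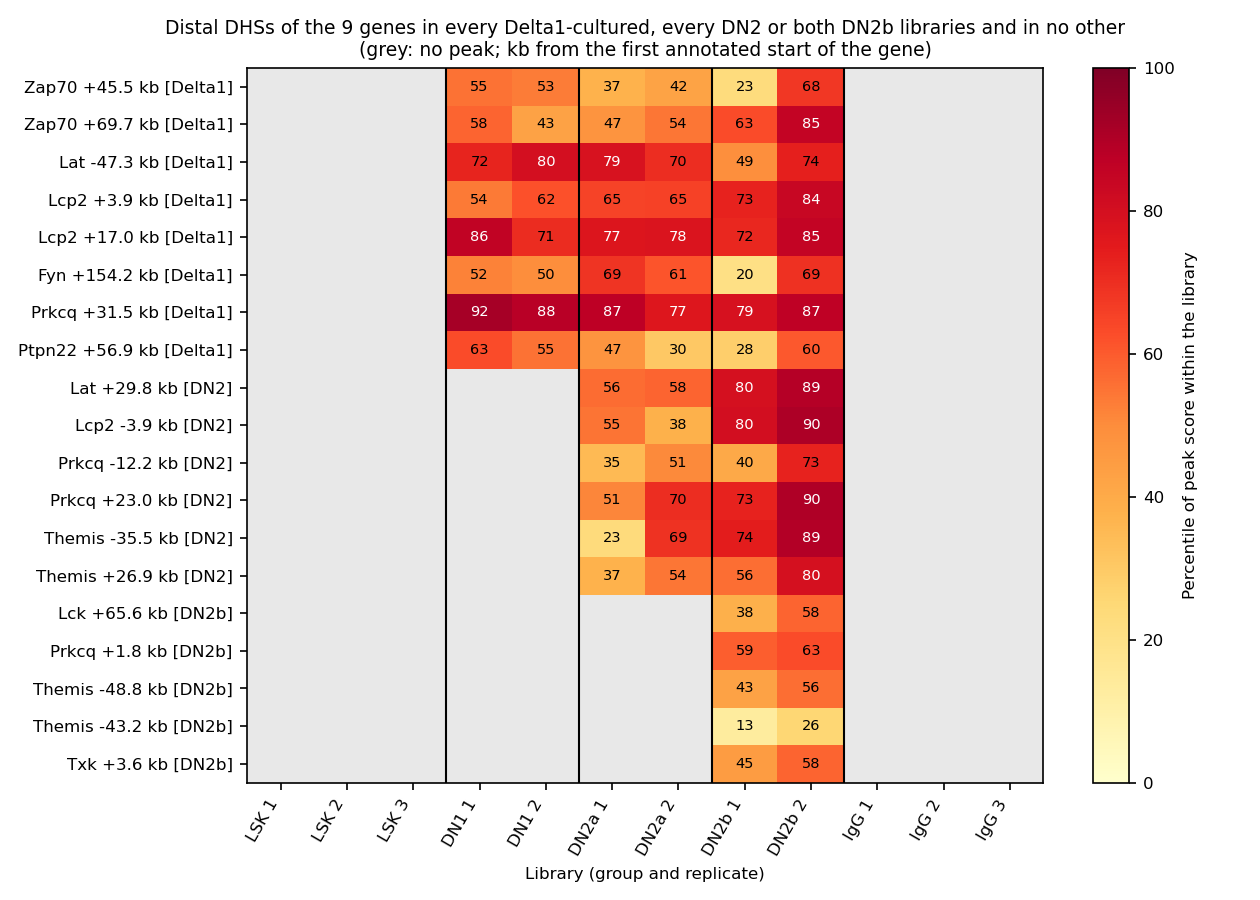
Percentile of the peak score in each library (columns) for the 19 distal DHSs with peaks in every Delta1-cultured, every DN2 or both DN2b libraries and in no other library (rows, by gene, distance from the first start in kb and pattern), with grey for no peak. The Prkcq site at 31.5 kb has the highest median of the Delta1 pattern, with values from 76.8 to 92.0.

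Distal DHSs with a peak in all 4 DN2 libraries and in no other numbered 6 (2.84% of 211), where 0.873% of all distal DHSs had this pattern, and Prkcq and Themis had 2 each. The Themis site 35.5 kb upstream of the first start, between genes, had percentiles of 23.1 and 68.9 in DN2a and 74.4 and 89.3 in DN2b. Themis's intronic site at 26.9 kb had 37.2, 54.4, 55.9 and 79.6 in the same order. Neither kept the pattern at equal list lengths, where of the 6 sites only that of Lat did.

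Prkcq's DN2 sites lay 12.2 kb upstream, with 34.9 and 50.6 in DN2a and 40.5 and 73.0 in DN2b, and in an intron at 23.0 kb, with 51.3, 70.0, 72.8 and 90.0. Lat's site, between genes 29.8 kb past its start, had 56.5, 57.9, 79.7 and 88.9, and that of Lcp2, 3.9 kb upstream of the gene in an intron of 4930469K13Rik, had 54.9, 37.6, 80.3 and 90.4. The DN2b value exceeded each DN2a value at every site but the Prkcq one upstream, where DN2b replicate 1 lay within the DN2a values.

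Sequences of 3 of these peaks are shown because their peaks, unlike most member promoter peaks, were present in the DN2 libraries alone.
Themis, plus strand, chr10:28632757-28632906: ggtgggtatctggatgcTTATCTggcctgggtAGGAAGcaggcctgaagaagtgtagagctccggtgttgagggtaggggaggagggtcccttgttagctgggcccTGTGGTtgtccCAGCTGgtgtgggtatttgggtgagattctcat
Prkcq, plus strand, chr2:11195057-11195206: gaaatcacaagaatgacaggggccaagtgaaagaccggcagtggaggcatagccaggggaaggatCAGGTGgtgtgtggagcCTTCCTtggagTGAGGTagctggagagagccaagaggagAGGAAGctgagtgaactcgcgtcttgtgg
Lat, minus strand, chr7:126339677-126339826: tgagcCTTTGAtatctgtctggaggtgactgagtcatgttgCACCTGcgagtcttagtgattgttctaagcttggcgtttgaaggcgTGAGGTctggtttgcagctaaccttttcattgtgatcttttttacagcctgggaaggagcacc

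RUNX letters were present in 5 of the 6 DN2 sites, E protein letters in 5, TCF1/LEF1 letters and ETS letters in 3 each, GATA letters in 1 and RBPJ letters in 0. Among the highest peaks of all 1144 distal DHSs of this pattern the shares were 60.4% for RUNX, 54.7% for E protein, 25.1% for TCF1/LEF1, 35.8% for ETS, 18.6% for GATA and 4.28% for RBPJ. Over all distal DHSs they were 42.7%, 41.2%, 12.3%, 36.4%, 9.45% and 3.51%. A match is a string of letters and no measurement of binding.

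Distal DHSs in all 6 Delta1-cultured libraries and in no other numbered 8 (3.79%), against 2.13% of all distal DHSs. Prkcq's site in an intron at 31.5 kb had 92.0 and 88.2 in DN1, 87.1 and 76.8 in DN2a, and 79.0 and 86.7 in DN2b, and it was still of this pattern at equal list lengths. Lcp2's intronic site at 17.0 kb had 85.9, 70.6, 77.0, 77.7, 71.8 and 85.4 in the same order, and it too kept the pattern. DN1 values overlapped those of DN2 at the Lcp2 site and lay above them at the Prkcq site.

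The other 6 sites lay in an intron of Lcp2 at 3.9 kb, in an intron of Fyn at 154.2 kb, in introns of Tmem131 45.5 and 69.7 kb from the start of Zap70, in an intron of Rsbn1 56.9 kb from that of Ptpn22, and 47.3 kb upstream of Lat. Of these 6, only the site upstream of Lat kept the pattern at equal list lengths. A site within 50 kb of a member can lie in or near a neighbouring gene, as those in Tmem131 and Rsbn1 do. Their median percentiles ran from 47.8 to 73.1, below the 86.9 and 77.3 of the Prkcq and Lcp2 sites.
Prkcq, plus strand, chr2:11203477-11203626: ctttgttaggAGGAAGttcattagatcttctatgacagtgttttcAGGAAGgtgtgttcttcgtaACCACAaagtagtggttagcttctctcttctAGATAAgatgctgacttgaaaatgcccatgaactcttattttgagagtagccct
Lcp2, plus strand, chr11:34063737-34063886: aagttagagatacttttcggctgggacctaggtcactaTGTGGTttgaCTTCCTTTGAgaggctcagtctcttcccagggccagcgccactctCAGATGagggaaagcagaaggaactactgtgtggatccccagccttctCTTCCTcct

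These 2 sequences are shown as the Delta1 sites with the highest medians, and in the second an ETS and a TCF1/LEF1 match overlap. RUNX letters were present in 6 of the 8 Delta1 sites and RBPJ letters in 0, where 70.4% and 5.26% of all 2797 distal DHSs of this pattern held them.

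Both DN2b libraries and no other shared 5 sites, where 1.91% of distal DHSs had this pattern. They were 2 upstream of Themis, at 48.8 and 43.2 kb, and 1 each at Prkcq (1.8 kb, intron), Txk (3.6 kb, exon of a non-coding transcript) and Lck (65.6 kb). Percentiles ran from 12.9 at one of the Themis sites to 63.2 at the Prkcq site, lower than those of most DN2 and Delta1 sites, and none of the 5 kept the pattern at equal list lengths. No member site had a peak in all LSK and IgG libraries and none in the Delta1 cultures (0.110% of distal DHSs), or in all LSK, DN1 and IgG libraries and none in DN2 (0.209%). Peaks in all 12 libraries were found at 3 sites, 1 near Lcp2 and 2 past the end of Prkcq, against 3.33% of distal DHSs.

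At equal list lengths 107 distal member DHSs remained. DN2-only sites then numbered 5 (4.67%), 4 of them near Lat and 1 at Prkcq, against 2.41% of all distal DHSs. The other 3 Lat sites, at 29.2, 12.6 and 12.3 kb from its start, had peaks in DN1 and in LSK replicate 3 as well in the complete lists, from 13.3 to 63.2, and the last also in IgG replicate 1 at 3.03. Prkcq's site, in an intron at 32.4 kb, had a DN1 peak at 45.2 there. Delta1-only sites numbered 6, against 2.25%, among them Fyn, Prkcq and Txk sites that were not of this pattern in the complete lists. Peaks in LSK and IgG only were found at 1 site, in an intron of Tec 43.8 kb upstream of Txk, against 0.526%. The Tec site had values of 67.7, 78.5 and 85.8 in LSK and 20.8, 29.3 and 56.4 in IgG in the complete lists, in which both DN1 libraries (22.7 and 14.3) and DN2b replicate 2 (42.8) had a peak too.

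A further pattern, chosen after the data were seen, was a peak in all 9 LSK and DN libraries and in no IgG library. It held for 8 member sites (3.79%), 4 of them at Fyn and 2 at Prkcq, a share near the 3.43% of all distal DHSs, and at equal list lengths for 5 sites, against 2.18%. Prkcq's intronic site at 20.9 kb was one, with 84.2, 85.1 and 89.7 in LSK and 66.8 to 90.8 in the DN libraries. Prkcq's site at 67.6 kb came close, with 93.3, 92.2 and 92.1 in LSK, 96.4 and 96.2 in DN1, 83.2 and 83.4 in DN2a, 49.0 and 78.5 in DN2b, and 1 IgG peak at 29.5.

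**Figure D4:**
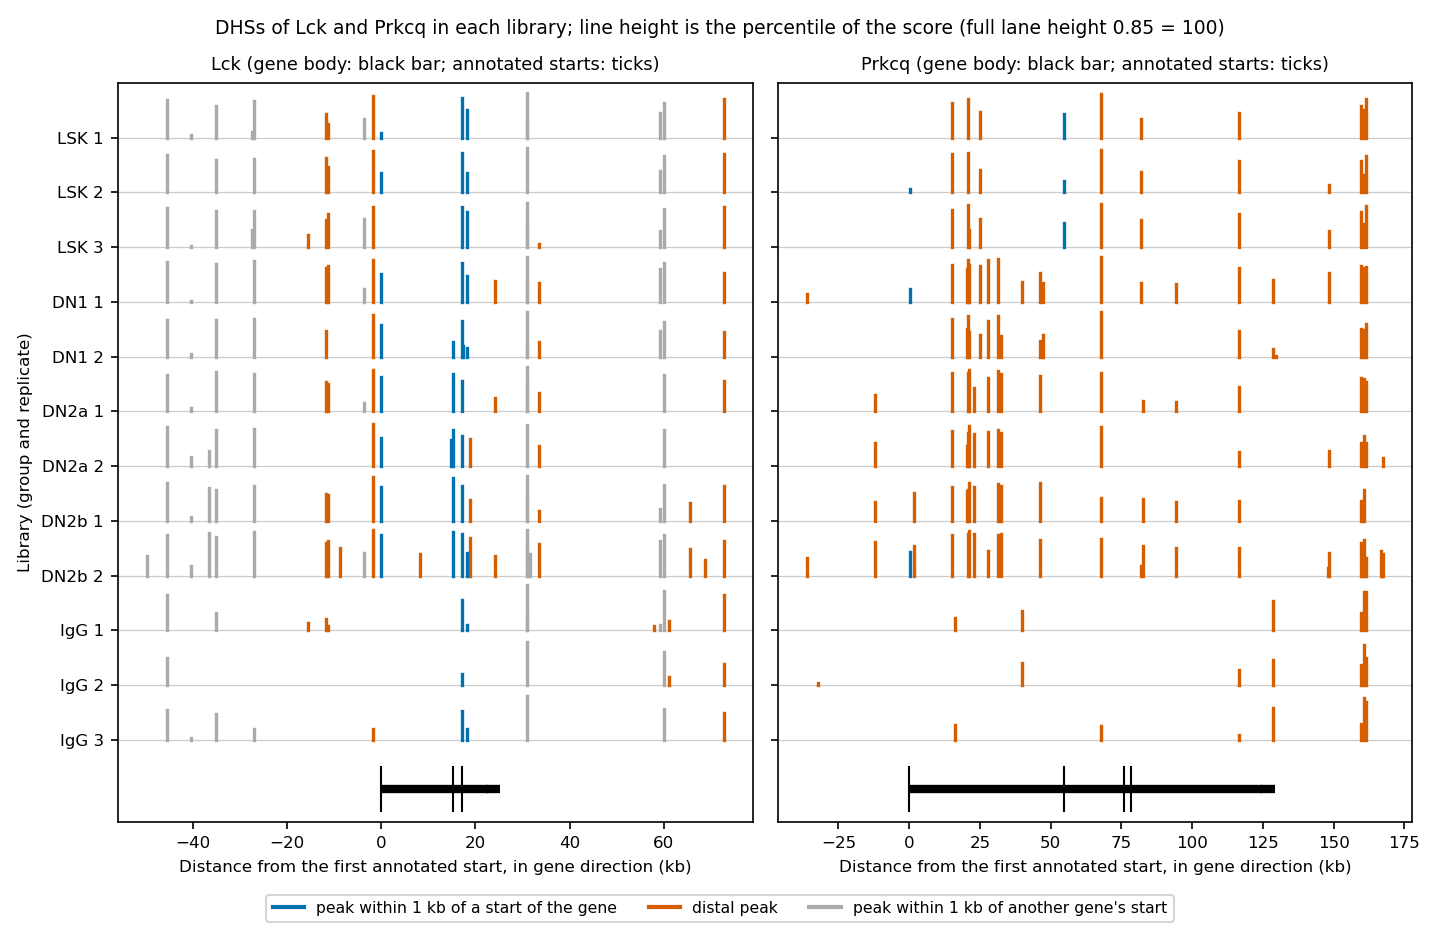
DHSs of Lck (left) and Prkcq (right) by distance from the first annotated start in the direction of the gene (horizontal axis, kb) in each library (lanes), with line height for the percentile of the score and colour for peaks at the gene's own starts, distal peaks and peaks at starts of other genes. At Lck the peak at 15.25 kb appears in the DN2 lanes and in 1 DN1 lane, and at Prkcq the sites at 23.0 and 31.5 kb appear in the DN2 and in all Delta1 lanes.

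The other genes of the pathway comprised 41 genes for receptor chains, coreceptors, adaptors, kinases and phosphatases, of which 39 had a promoter peak. None was called in DN2, 8 had all DN2 values above all others (among them Cd28, Skap1, Plcg1, Sh2d2a, Cd3g and Cd3e), where 1.71% of all genes did, and the median difference was 21.3 percentile points against 3.51 over all genes. With lists of equal length 5 of 37 separated, against 2.38% of all genes, Cd28, Cd3g and Cd3e still among them but not Skap1, Plcg1 or Sh2d2a, and the median difference was 6.32 against -0.29. With Delta1, 8 of the 39 were called higher and 0 lower, against 13.3% of all genes called higher, among them the adaptors and inhibitors Lax1, Sla, Grap2, Cblb and Cd5, Plcg1 (phospholipase C gamma) and the receptor chain Cd3d. With lists of equal length 6 of 37 were called higher, against 3.04% of all genes, and Plcg1 and Cd3d were no longer called. There 1 of the 37 was called lower, where 389 of 12663 genes were, against 93 of 14816 in the complete lists. By number of distal DHSs 12 of 41 were called higher with Delta1, against 6.0% of all genes, and none at equal list lengths.

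Cd3e, a receptor chain, had peaks only in DN2, at 68.5, 74.1, 92.7 and 98.8, and Cd3g likewise in DN2 alone. Other chains did not share this. Cd3d had a peak in all 12 libraries, from 92.9 to 99.6. Cd247 had peaks at 24.2 in LSK replicate 1, 50.6 in DN1 replicate 1, 49.3 in DN2a replicate 1, and 40.5 and 75.6 in DN2b. DN2a replicate 2 had no Cd247 peak. In the same complete lists Zap70, Lcp2 and Txk had promoter peaks in both DN1 libraries and the second Lck start in 1 of them. At equal list lengths Zap70 and Lcp2 kept their DN1 peaks and Cd3d its peaks in all 12 libraries. There Cd3e, Cd3g, Txk and the second Lck start had peaks in all 4 DN2 libraries and in no other. Cd247 kept a single peak, at 17.4 in DN2b replicate 2.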

How the data were processed

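The authors made DNase-seq libraries from 12 mouse samples and, per the study's methods, aligned trimmed paired reads to mm10 and called peaks with hotspot2 at an FDR of 0.05. The submitters' processing notes name BWA 0.7.12 and SAMtools 1.2. The deposited unit is a peak list per library, not pooled, whose column 5 is a whole-number score (1 to 150) of unstated meaning. Scores were used here only as within-library percentiles, over autosomes and X. Peaks overlapping by at least 1 bp in any library were merged into DHSs. GENCODE vM21 gave genes and starts, and starts of a gene chained within 1 kb formed a start group. Exact permutation tests across all genes, with Benjamini-Hochberg adjustment (threshold 0.05), were computed in Python 3.11.15 with numpy 2.4.6 and tested on simulated data. Groups followed the labels, and replicate numbers only name libraries. Precision is limited by the 2 or 3 libraries per group and by unknown read depth. Tests between single groups of 2 and 3 libraries cannot go below p = 0.1 in an exact permutation test and were not made.

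All 9 members, each of their starts with a peak and up to 3 distal DHSs per pattern and member were named. The members and gene lists were chosen with earlier results of these data known. Alternatives were equal list lengths, the upper 50% of each list, each library left out, other promoter windows, flanks and merging rules, the gene record start only and 1 missing library per pattern. The tests of start groups, the per-member values under alternatives of the Delta1 comparison and the pattern without IgG were added after seeing the data. Sequences were read from GRCm38.p6, and a motif share is the share of the highest 150-bp peak of each DHS that holds the letters. Some genes and a sequence that the naming rules would include are not reported here.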

Additional observations from a re-analysis of the deposited data

How the results depend on the processing

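By promoter percentile, the members called higher with Delta1 numbered 5 in the complete lists (where 13.3% of all genes were called). They numbered 3 at equal list lengths (3.04%) and 0 to 6 with 1 library left out. The 6 came without LSK replicate 1, where 17.96% of all genes were called. Without LSK replicate 3 there were 5, where 21.7% were called. By number of distal DHSs the members called higher with Delta1 numbered 3 (where 6.0% of all genes were called) and 0 at equal list lengths. With a flank of 25 kb they numbered 1 (4.77%) and with 100 kb 7 (18.96%). With 1 library left out they numbered 0 to 5. The 5 came without DN1 replicate 2, where 9.31% of all genes were called. Without DN2a replicate 2 there were 4, where 21.9% were called. The count called in DN2 was 0 under each alternative run, where no gene of the genome was called higher either. In the complete lists the smallest adjusted p of any gene was 0.142 by promoter percentile and 0.383 by distal numbers (exact permutation test). This 0 therefore says nothing about the members in particular. Distal sites of the DN2 pattern numbered 6 to 8 with a library left out. The 8 came without DN2a replicate 2, where 1.65% of all distal DHSs had the pattern, against 0.873% in the complete lists. Distal sites of the Delta1 pattern rose from 8 to 13 with a flank of 100 kb. They also rose to 13 where 1 library could lack the peak (4.06% of all distal DHSs, against 2.13% in the complete lists). With a library left out they numbered 8 to 11, the 11 without LSK replicate 3 (2.59%). DN2b sites went from 5 (1.91% of all distal DHSs) to 34 where 1 library could lack the peak (16.2%). They numbered 2 at equal list lengths (1.85%), 2 at 25 kb and 8 at 100 kb. With a library left out they ran from 5 to 34, the highest without DN2b replicate 1 (15.2%). Sites in all 12 libraries went from 3 (3.33% of all distal DHSs) to 10 where 1 could lack the peak (5.61%). They numbered 1 at equal list lengths (5.23%), 1 in the upper 50% of lists (3.28%), 0 at 25 kb and 12 at 100 kb. With a library left out they numbered 3 to 5, the 5 without IgG replicate 1 (4.11%) or IgG replicate 2 (3.9%). Sites of LSK and IgG went from 0 (0.110% of all distal DHSs) to 1 at equal list lengths (0.526%). Those missing in DN2 alone went from 0 (0.209%) to 0 or 1 with a library left out. The 1 came without DN2a replicate 1 (0.32%) or DN2b replicate 2 (0.29%). For single members, no called direction reversed. With Delta1, the promoter call of a member was lost in 33 and gained in 2 of its repeats under an alternative and kept its side of the threshold in 114, the call on distal numbers was lost in 21, gained in 9 and kept in 132, and the call of a start group was lost in 39 and kept in 173. The cause of these shifts was not tested. No paired analysis was possible because the labels do not say which libraries share an LSK isolate, and the replicate numbers used here only name libraries.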

Other observations

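For each member with promoter peaks in at least 3 libraries, the protein-coding genes over 1 Mb away whose promoter percentiles were most like it over the 12 libraries were ranked by Pearson correlation. The points share libraries and list lengths, and many genes have the same on and off pattern, so the coefficients are a description and carry no p. Zap70 was nearest to Gfi1, a transcriptional repressor of early blood and T cells (r = 0.993), Prrt1 (0.992) and Il12rb1 (0.99). Lcp2 was nearest to Sla, an adaptor that dampens T cell receptor signalling (0.983), Col15a1 (0.973) and Pde4a (0.973). Txk was nearest to Cd163l1 (0.994), Dnah7c (0.994) and Gzma, a granzyme of cytotoxic lymphocytes (0.992). Lck was nearest to Il16 (0.99), Ercc5 (0.986) and Nfkbie (0.985), Lat to Trim44 (0.993), Cdc25b (0.993) and Cfap58 (0.993), Fyn to Gm35315 (0.988), Mospd2 (0.985) and Fancb (0.985), Ptpn22 to Pitx3 (0.993), Nom1 (0.991) and Slc39a8 (0.99), and Prkcq to Myzap (0.967), Wdr31 (0.955) and Grb10 (0.946). Themis, with 1 promoter peak, was not ranked.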
